A study of Homo sapiens with 414 samples.

Results

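The cells described here are LNCaP cells outside the mitotic program, compared between a knockdown of SULT2B1 and its control. They were selected on measured reads. A cell was kept if fewer than 3 of MKI67, TOP2A, CCNB1, CDK1, UBE2C and TPX2, genes of dividing cells, reached 10 CPM (reads of a gene per 1000000 reads of the cell), and if at most 20% of its reads came from mitochondrially encoded genes. The selection kept 198 cells, 68 of 209 control and 130 of 192 knockdown cells. LNCaP is an androgen-responsive epithelial line established from a human prostate carcinoma, and the labels name no change in either arm other than the transfected siRNA. Control cells received a non-targeting siRNA from Dharmacon and knockdown cells an siRNA against SULT2B1 from IDT, so the 2 arms differ in supplier as well as in target. All cells were taken 48 h after transfection and captured 1 by 1 on Fluidigm C1 plates for large cells, in 3 batches that each held both arms. Well names recur between the arms of each batch, so each arm had a plate of its own there. Effects of arm and of plate therefore cannot be told apart. One siRNA per arm was used, no untransfected cells were analysed here, and the series asks whether SULT2B1 alters how readily prostate cancer cells die when exposed to TNF.

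SULT2B1 belongs to the cytosolic sulfotransferases; its b isoform sulfates cholesterol and similar sterols. In epithelial cells, double-stranded RNA in the cytosol is detected by RIGI and IFIH1, which signal through MAVS to switch on type I and type III interferon genes. Secreted interferon then acts through JAK kinases and a complex with IRF9 on a regulatory sequence called the interferon-stimulated response element, which drives IFIT, OAS and related antiviral genes. Prostate luminal cells are known for another program, in which androgen signalling, with the factors FOXA1 and HOXB13, drives KLK3 (prostate-specific antigen), KLK2 and TMPRSS2.

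Control gave 22, 12 and 34 kept cells in batches 1, 2 and 3, of 76, 66 and 67. Knockdown gave 43, 47 and 40, of 66, 65 and 61. The kept share was therefore 28.9%, 18.2% and 50.7% in control and 65.2%, 72.3% and 65.6% in knockdown, which describes the selection and was not tested. Within the kept cells, 52 had none of the 6 genes at 10 CPM, 93 had 1 and 53 had 2. Just outside, 28 cells had 3 of them, while 78 had all 6. The highest mitochondrial share kept was 18.02% and the lowest left out of cells under 3 genes was 21.2%; 31 cells were left out for that share alone. Control batch 2 contributed no cell without any of the 6 genes.

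The kept cells of each arm and batch were summed, since cells of 1 library are not replicates, giving 3 control and 3 knockdown libraries of 14294709 to 53752657 reads. The median kept cell had 1182401 ± 43914 reads in control and 1230948 ± 153654 in knockdown (SD, n = 3; two-sided exact permutation test, p = 0.8), and 8613 ± 188 and 8749 ± 99.1 genes with a read (exact p = 0.5). With 3 libraries per arm the smallest exact p is 0.1. Nothing in the labels says that the batches were grown separately, and the p-values then cover only how much these 3 runs varied, perhaps for technical reasons.

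The luminal identity in the label was present: markers of luminal cells summed to between 6678 and 7596 CPM over control libraries and to between 2932 and 3910 over knockdown libraries. Basal markers summed to between 16.4 and 38.7 CPM over all 6 libraries, with 7 of 9 in the table and the basal factor TP63 at a mean of 0 CPM in control and 0.00639 in knockdown. Neuroendocrine markers summed to between 6.41 and 27.3 CPM with CHGA at 0 CPM in control, and blood and endothelial markers to between 0.420 and 18.7 CPM, with CD3D and CD14 at 0 reads throughout. Mesenchymal markers, mostly FN1, summed to between 176.7 and 308.7 CPM in control and between 79.2 and 176.2 CPM in knockdown. Only 3 basal, 2 neuroendocrine, 4 mesenchymal and 1 blood and endothelial marker had enough reads for the edgeR test. None of them passed it, while DESeq2 called 1 mesenchymal marker. The part of the lower mesenchymal sum in other results was not tested.

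The sequences that follow show the motif found more often in promoters of the genes higher in knockdown than of those lower. They are 30-base stretches around the core of the interferon-stimulated response element (GAAA, any 2 bases, GAAA, or its reverse complement) found by script in RefSeq promoters on GRCh38.p14, 250 bases before to 50 after a gene's start. They are printed 5′ to 3′ on the strand of the gene, with the core in capitals and overlapping cores joined.
IFIT3 (chr10:89332468-89332497, plus strand): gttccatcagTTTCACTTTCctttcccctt
RSAD2 (chr2:6877622-6877651, plus strand): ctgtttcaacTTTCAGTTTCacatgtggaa
ISG15 (chr1:1013374-1013403, plus strand): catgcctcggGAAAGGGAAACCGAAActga
CXCL10 (chr4:76023699-76023728, minus strand): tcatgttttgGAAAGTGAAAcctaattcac
DDX60 (chr4:168318786-168318815, minus strand): gaggagaaagGAAACCGAAActcccgccgg
IFI6 (chr1:27672329-27672358, minus strand): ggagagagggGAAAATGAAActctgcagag
PLSCR1 (chr3:146544667-146544696, minus strand): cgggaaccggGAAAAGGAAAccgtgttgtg

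Across promoters, this core was present for 18 of the 33 genes higher in knockdown that had a promoter entry (54.5%). It was present for 1 of 43 lower genes (2.33%) and for 3.95% of the 10890 tested genes with an entry. Motifs of cell cycle genes were searched in the same windows. Either of the 2 E2F motifs searched was present for 6.06% of higher, 2.33% of lower and 4.39% of all tested genes, and the core of the cell cycle homology region, TTTGAA, for 15.2%, 9.30% and 13.8%. A match describes letters in this window and is not a measured site; OASL, IFIT2, OAS2 and CCL5 had no entry.

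Target transcript. SULT2B1 (chromosome 19, 48552075 to 48599425, plus strand, GRCh38) was at 3.04, 0.770 and 6.34 CPM in control batches 1, 2 and 3 and at 0.2503, 0.364 and 0 CPM in knockdown. All 3 knockdown libraries were below all 3 control libraries. The log2 fold change (knockdown over control, as everywhere below) was -4.12 (SE 1.66) with an edgeR quasi-likelihood adjusted p of 0.411, so the difference did not pass at this read depth, where the counts were 75, 11 and 271 reads against 13, 19 and 0. A read of SULT2B1 was found in 17 of 68 kept control cells and in 3 of 130 knockdown cells. As shares per library these were 22.4% ± 8.65 and 2.26% ± 2.33 (SD, n = 3; exact p = 0.1). DESeq2 gave an adjusted p of 0.0493. Without control batch 3 the log2 fold change was -3.26 and without knockdown batch 2 it was -4.80.

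Between knockdown and control, 97 of 17727 genes differed at an edgeR adjusted p under 0.05, which is 0.547% of the genes tested. Higher in knockdown were 43 genes (0.243%) and lower were 54 (0.305%), while 2024 genes had an unadjusted p under 0.05. Every one of the 43 had all knockdown libraries above all control libraries, and every one of the 54 had all of them below. Separation of the arms alone, also where given for genes that did not pass, cannot reach a two-sided exact permutation p below 0.1. Of the 43 higher genes, 10 had no read in any kept control cell. The number of calls depends on each library. Without control batch 1, 2 or 3, 42, 63 and 16 genes passed, and without knockdown batch 1, 2 or 3, 9, 8 and 15. Of the named genes, IFIT3, OASL, CXCL11, DDX60 and RIGI passed in all 6 of these fits, with adjusted p of at most 0.0479; the others lost their call in at least 1. Of the 12 largest falls, 0 to 8 passed in them. With batch as a block 16 passed, 11 higher and 5 lower, all among the 97.

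**Figure D1:**
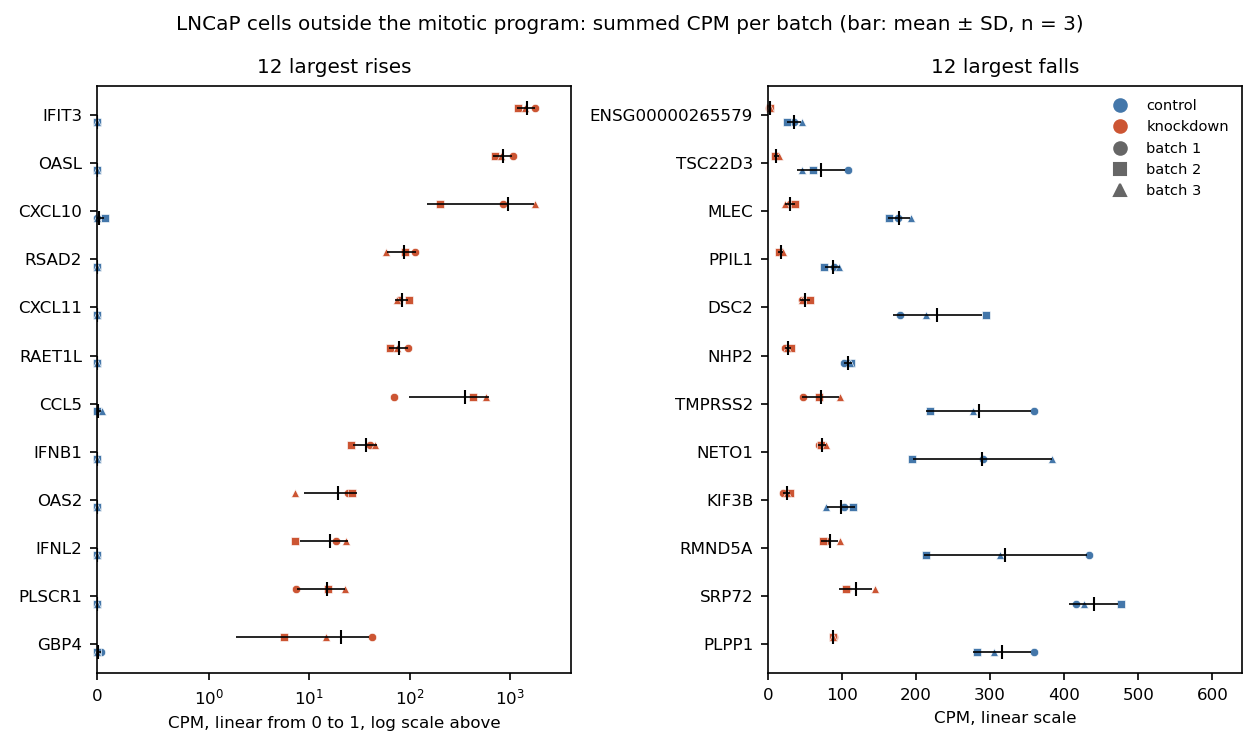
Summed CPM of the 12 genes with the largest rises (left, linear from 0 to 1 CPM and log scale above) and the 12 with the largest falls (right, linear scale). Each point is 1 library of kept cells, with the arm in colour and the batch as symbol, and bars are mean ± SD (n = 3); the rises start from 0 to 0.0700 CPM in control, whereas the falls start from 25.6 CPM or more.

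Interferon genes. Some knockdown cells outside the mitotic program held reads of type I and type III interferon genes that had no read in any kept control cell. IFNB1, the type I interferon made first by most cells that sense viral RNA (chromosome 9, 21077105 to 21077963, minus strand), was at 40.0, 25.9 and 45.3 CPM in knockdown batches 1, 2 and 3 and at 0 in each control library. The groups did not overlap, which holds for every called gene. IFNB1 was at least 1009-fold higher in knockdown, against a floor of 3 reads over the control arm (adjusted p = 0.0119; 0.113 with batch as a block). It came from few cells. Reads of IFNB1 were found in 3, 5 and 6 knockdown cells, and a single cell held 97.6%, 93.9% and 96.3% of them in the 3 batches. Its log2 fold change passed no longer without cells in the S phase program described below (adjusted p = 0.180).

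The type III interferons lie together on chromosome 19 and act on epithelia through IFNLR1 and IL10RB. IFNL2 was at 18.4, 7.32 and 23.2 CPM in knockdown and at 0 in control, at least 443-fold higher (adjusted p = 0.0319; 0.201 with the block and 0.141 without S phase program cells). IFNL1 reached 39.9, 17.4 and 132.3 CPM in knockdown with no control read but did not pass (adjusted p = 0.0551), and its knockdown mean of 63.2 CPM was 28.6 without batch 3. IFNL3, a near-identical copy of IFNL2 whose reads may be split between them, was at 15.8, 5.27 and 25.4 CPM against 0 (adjusted p = 0.0503). Most type III reads also came from few cells: 1 cell of each knockdown batch held 87.9%, 99.7% and 99.2% of the IFNL2 reads, which were found in 3, 2 and 6 cells. The cell with the most IFNL3 reads held 87.0%, 91.6% and 97.0%, and that with the most IFNL1 reads 62.7%, 68.6% and 94.2%. IFNL1 reads were spread more widely, over 7, 4 and 15 knockdown cells, or 26 of 130. They were also found in 2 of the 141 control cells left out by the selection. All 4 genes thus had reads in every knockdown library and in no control library of kept cells. Their receptor genes did not pass: IFNAR1 was at 106.5 CPM in control and 84.7 in knockdown, IL10RB at 13.8 and 18.1, and IFNGR2 at 118.8 and 100.1. Over the list of interferons and receptors, 2 of 9 tested members passed, both higher, with a median log2 fold change of 0.307 beside 0.0119 for all genes tested.

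RNA sensors. Of 11 tested genes of double-stranded RNA sensing, 1 passed, with a median log2 fold change of 1.04. RIGI, the cytosolic helicase that recognises RNA with a 5′ triphosphate end (chromosome 9, 32455705 to 32526324, minus strand), was at 19.3, 9.02 and 14.2 CPM in control and at 521.1, 393.3 and 418.9 CPM in knockdown. The lowest knockdown library was far above the highest control library, and the log2 fold change was 4.89 (SE 0.312; adjusted p = 0.00409; 0.0123 with the block). Reads of RIGI were found in 40.7% ± 3.96 of control and 90.7% ± 4.10 of knockdown cells (SD, n = 3; exact p = 0.1).

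IFIH1, the sensor of long double-stranded RNA, was at 0.852, 5.11 and 13.5 CPM in control and 103.8, 63.7 and 106.3 CPM in knockdown. These values did not overlap, but control libraries spread widely and the difference did not pass (log2 fold change 3.72, SE 0.878, adjusted p = 0.162; 4.93 without control batch 3). EIF2AK2, the kinase PKR that halts translation on binding double-stranded RNA, was at a mean of 72.3 ± 2.98 CPM in control and 157.0 ± 48.9 in knockdown (SD, n = 3; adjusted p = 0.151). DHX58 had 1 read in control against 1.10, 2.49 and 0.837 CPM in knockdown, a ratio of 120 (95% counting interval 21.3 to 4759; adjusted p = 0.155). Its knockdown mean of 1.48 CPM was 0.967 without batch 2. The adaptor MAVS was at 63.6 and 56.3 CPM (adjusted p = 0.812) and the kinase TBK1 at 130.2 and 133.4 CPM (adjusted p = 0.986).

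Signal relay. None of 10 tested JAK-STAT and IRF genes passed, although 9 had a log2 fold change above 0 (median 1.20), beside 8987 of 17727 genes tested. The 5 with an unadjusted p under 0.05 were all higher, while 6.09% of all genes tested were higher at that threshold. USP18, which cleaves ISG15 from proteins and dampens the interferon receptor, was at 5.72 ± 1.71 and 24.9 ± 13.1 CPM (SD, n = 3; adjusted p = 0.176). IRF9, a DNA-binding subunit of the complex that interferon activates, was at means of 0.468 and 5.93 CPM (adjusted p = 0.249), and IRF3, which acts upstream without needing to be induced, at 7.36 and 8.88 (adjusted p = 0.969).

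Effectors. The interferon-stimulated effectors held more rises than any other list: 12 of 31 tested members passed, all higher, with a median log2 fold change of 4.92, and 28 of the 31 were higher in knockdown within all 3 batches. Of all genes tested, 35.2% had one direction, higher or lower, in all 3 batches. Summed, the list held 317.0, 305.6 and 310.0 CPM in control and 8991, 6899 and 8570 CPM in knockdown. With batch as a block, 6 of the 12 passed (IFIT3, OASL, IFI6, DDX60, HERC5 and ISG15).

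Among the IFIT proteins, which bind viral RNA and block its translation, IFIT3 had no read in kept control cells and was at 1760, 1193 and 1414 CPM in knockdown. It was at least 39620-fold higher (adjusted p = 0.00107; 0.0155 with the block). IFIT1 was at 0, 0 and 2.27 CPM in control and 1139, 875.0 and 903.1 CPM in knockdown (adjusted p = 0.0226; 0.108 with the block). IFIT2 was at 9.09, 0 and 3.44 CPM in control against 2702, 1890 and 3069 CPM, log2 fold change 9.14 (SE 1.17, adjusted p = 0.0251; 0.0949 with the block). All 3 genes lie side by side on chromosome 10, and none of their libraries overlapped between the arms, as in every called gene. IFIT3 reads were found in 40 of 43, 38 of 47 and 33 of 40 knockdown cells and in 0 of 22, 0 of 12 and 0 of 34 kept control cells, which allows shares of cells with a read of up to 13.6%, 25.0% and 8.82% in the 3 control libraries. Among the 141 control cells left out by the selection, 12 had a read of IFIT3. A share of 85.5% ± 6.60 of knockdown cells held reads of IFIT3 (SD, n = 3; exact p = 0.1), or 53.7% with every cell thinned to 100000 reads.

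The OAS enzymes make the 2-5A signal that activates RNase L, and OASL is a relative without that activity that acts with RIGI. OASL was at 0 CPM in each control library and at 1052, 702.7 and 805.7 CPM in knockdown, and so at least 23230-fold higher (adjusted p = 0.00107; 0.0197 with the block). Over all cells of both arms its log2 fold change was 9.65 and did not pass (adjusted p = 0.0504). A read of OASL was found in 1 of the 141 control cells left out by the selection. OAS2 was at 24.5, 26.7 and 7.26 CPM in knockdown against 0, at least 530.5-fold higher (adjusted p = 0.0331; 0.185 with the block). OAS3 was at 1.75, 0.770 and 0.562 CPM in control and 38.7, 43.8 and 50.1 CPM in knockdown, log2 fold change 5.36 (SE 0.547, adjusted p = 0.0119; 0.0930 with the block and 0.107 without S phase program cells). For each of these OAS genes, no knockdown library was as low as any control library, as in every called gene that was higher. OAS2 reads were found in only 15 of 130 knockdown cells, and 1 cell of each batch held 32.7%, 46.1% and 71.0% of them.

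ISG15, the ubiquitin-like modifier, was at 24.4, 53.7 and 19.7 CPM in control and 434.9, 536.8 and 453.0 in knockdown (log2 fold change 3.80, SE 0.402, adjusted p = 0.0127; 0.0457 with the block). HERC5, the ligase that attaches ISG15, was at 10.4 ± 4.49 and 138.2 ± 32.8 CPM (SD, n = 3; adjusted p = 0.0119; 0.0405 with the block). IFI6, a mitochondrial and endoplasmic reticulum protein, was at 3.82, 2.31 and 5.59 CPM in control and 121.3, 167.5 and 227.6 in knockdown (log2 fold change 5.36, SE 0.435, adjusted p = 0.00633; 0.0342 with the block). IFI6 reads were spread over many cells. The cell with most of its reads held 10.9%, 10.2% and 29.8% of them in the 3 knockdown libraries, and 99.3% ± 1.23 of knockdown cells had a read against 72.2% ± 11.9 of control cells (SD, n = 3; exact p = 0.1). DDX60, a helicase, was at 4.37 ± 0.979 and 140.8 ± 47.6 CPM (adjusted p = 0.00446; 0.0405 with the block). RSAD2, or viperin, which makes a chain-terminating nucleotide, had no control read and reached 112.6, 90.5 and 58.5 CPM, at least 2373-fold higher (adjusted p = 0.00633; 0.0783 with the block). RSAD2 reads were found in 40 of 130 knockdown cells, and 1 cell of each batch held 32.8%, 57.0% and 48.1% of them.

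Not all effectors followed. MX1, a dynamin-like antiviral GTPase, was at 5.80, 0.0700 and 9.78 CPM in control and 7.05, 5.17 and 3.03 CPM in knockdown, with overlapping groups (log2 fold change -0.12, SE 1.23, adjusted p = 0.993), and MX2 was at means of 3.21 and 2.67 CPM (adjusted p = 0.986). OAS1 had means of 2.45 and 122.5 CPM and IFI27 of 0.446 and 30.7 CPM without passing (adjusted p = 0.151 and 0.185). PLSCR1 and GBP4, interferon-inducible genes outside this list, were among the 12 largest rises. PLSCR1 was at 7.35, 15.6 and 22.5 CPM against 0, at least 412.5-fold higher (adjusted p = 0.0319; 0.206 with the block). Among the 141 control cells left out by the selection, 8 had a read of PLSCR1, and over all cells of both arms its log2 fold change was 2.77 and did not pass (adjusted p = 0.318). GBP4 had 1 control read against 41.8, 5.69 and 14.6 CPM, a ratio of 1682 (95% counting interval 301.7 to 66450; adjusted p = 0.0277; 0.0783 with the block). Its knockdown mean of 20.7 CPM was 10.2 without knockdown batch 1, where it no longer passed (adjusted p = 0.174). GBP4 reads were found in 17 of 130 knockdown cells and PLSCR1 reads in 29. In each batch 1 cell held 79.1%, 42.1% and 52.0% of the GBP4 reads, and 1 cell 58.4%, 23.6% and 47.9% of the PLSCR1 reads.

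Counted cell by cell, most knockdown cells held several effectors, at widely different numbers. The median kept cell had 4.5, 3 and 3 of 32 effectors at 10 CPM or more in control and 9, 10 and 9.5 in knockdown, 3.5 ± 0.866 against 9.5 ± 0.5 (SD, n = 3; exact p = 0.1). At least 5 effectors were at that level in 33.01% ± 16.7 of control and 93.9% ± 3.32 of knockdown cells (exact p = 0.1). Single knockdown cells ranged from 3 to 28 effectors and control cells from 0 to 9, so the 2 arms shared the values from 3 to 9.

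**Figure D2:**
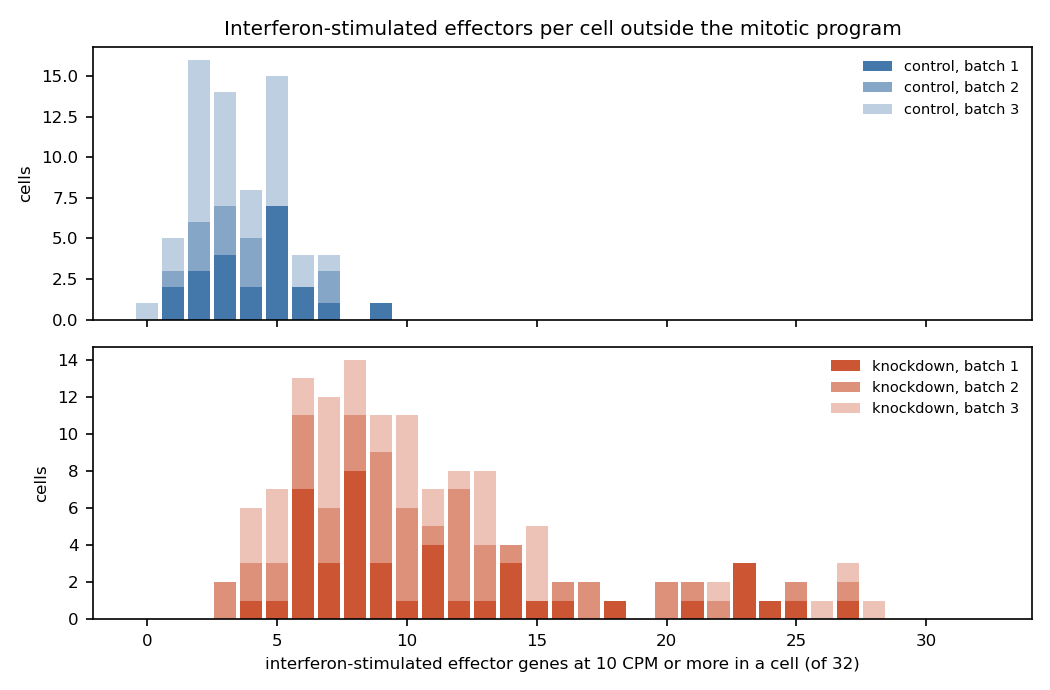
Number of kept cells (vertical axis) by how many of 32 interferon-stimulated effector genes they held at 10 CPM or more (horizontal axis), with control above and knockdown below and batches stacked in shades. Control cells end at 9 effectors, while knockdown cells run from 3 to 28.

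Chemokines. Of 5 tested chemokine genes, 3 passed, all higher; the median log2 fold change was 13.6, or 11.2 with genes without control reads set at their lower limit. CXCL10, which draws T cells through CXCR3, had 1 read in kept control cells and was at 842.1, 201.8 and 1770 CPM in knockdown (adjusted p = 0.00958; 0.0123 with the block). The ratio was 77290 (95% counting interval 13870 to 3053000), and the mean of 938.1 CPM was 521.9 without knockdown batch 3. Over all cells of both arms the log2 fold change of CXCL10 was 9.31 (adjusted p = 0.0410). Its reads were found in 3 of the 141 control cells left out by the selection. CXCL11, its neighbour on chromosome 4 and a ligand of the same receptor, was at 78.5, 98.2 and 73.9 CPM against 0, at least 2274-fold higher (adjusted p = 0.00409; 0.0783 with the block). CCL5, which draws T cells and monocytes, had 2 control reads and was at 70.1, 426.5 and 566.7 CPM in knockdown (ratio 14580, 95% counting interval 4035 to 120400; adjusted p = 0.0114; 0.00397 with the block).

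Chemokine reads were uneven among cells. CXCL10 reads were found in 28 of 43, 11 of 47 and 28 of 40 knockdown cells, and 1 cell held 54.3%, 53.6% and 57.0% of them. For CXCL11 the cells were 19, 9 and 6, and 1 cell held 49.8%, 62.1% and 54.9%. For CCL5 the cells were 14, 9 and 13, and 1 cell held 46.7%, 88.9% and 89.9%. CXCL8, a neutrophil attractant driven by NF-kB, was at 3.33, 40.2 and 1.53 CPM in knockdown against 0 and did not pass (adjusted p = 0.170); its mean of 15.0 CPM was 2.43 without knockdown batch 2.

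Antigen presentation and ligands for lymphocytes. Of 17 tested genes of antigen presentation 2 passed, both higher, with a median log2 fold change of 0.862. B2M, the light chain of class I molecules, was at 977.1, 876.5 and 893.2 CPM in control and 2249, 1921 and 1747 in knockdown (log2 fold change 1.03, SE 0.119, adjusted p = 0.0171; 0.0783 with the block). PSMB9, a subunit of the immunoproteasome, was at 0, 0.0700 and 0.117 CPM in control and 15.8, 20.7 and 14.8 in knockdown (log2 fold change 7.85, SE 0.963, adjusted p = 0.0218; 0.139 with the block and 0.0673 without control batch 3, where the log2 fold change was 9.08). The peptide transporter TAP1 was at 5.65 and 27.3 CPM (adjusted p = 0.142). RAET1L, a ligand of the natural killer cell receptor NKG2D, had no control read and was at 97.1, 63.5 and 75.4 CPM in knockdown, and so at least 2141-fold higher (adjusted p = 0.00446; 0.0783 with the block). It has close relatives in the ULBP family with which reads can be shared. RAET1L reads were found in 46 of 130 knockdown cells, and 1 cell of each batch held 49.7%, 39.3% and 44.0% of them.

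NF-kB, death receptors and p53. TNF itself had no kept control read and was at 0.270, 0 and 0.763 CPM in knockdown, too few reads for the test. One of 17 tested NF-kB response genes passed (median log2 fold change 1.23). NFKBIA, the inhibitor that NF-kB induces, was at 41.5, 43.4 and 28.7 CPM in control and 149.4, 143.8 and 147.5 in knockdown (log2 fold change 1.88, SE 0.212, adjusted p = 0.0150; 0.0990 with the block and 0.0582 without S phase program cells). NFKBIZ was at 7.79 ± 3.002 and 50.8 ± 16.01 CPM (SD, n = 3; adjusted p = 0.0669) and RELA at 8.58 ± 1.92 and 24.5 ± 1.57 (adjusted p = 0.174).

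FAS, the death receptor that is also a p53 target, was the 1 gene to pass among 19 tested death receptor and caspase genes and among 24 tested p53 targets. It was at 17.6, 8.33 and 23.5 CPM in control and 127.8, 124.7 and 94.2 in knockdown (log2 fold change 2.73, SE 0.396, adjusted p = 0.0413; 0.177 with the block and 0.163 without S phase program cells). Reads of FAS were found in 24.6% ± 8.004 of control and 80.0% ± 0.891 of knockdown cells (SD, n = 3; exact p = 0.1). TNFSF10, the ligand TRAIL, was at 1.502, 0 and 3.28 CPM against 72.3, 51.4 and 13.5 and did not pass (adjusted p = 0.186; the log2 fold change was 4.70, and 5.77 without control batch 3). CASP8 was at 46.6 ± 18.5 and 81.8 ± 8.29 CPM and TNFRSF10B, a TRAIL receptor, at 82.2 ± 18.4 and 124.4 ± 9.46 (adjusted p = 0.420 and 0.434).

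Of the 24 p53 targets, 22 had a log2 fold change above 0, beside 8987 of 17727 genes tested, and the list's median was 0.803. CDKN1A, which encodes the cell cycle inhibitor p21, was at 28.9, 69.7 and 63.6 CPM in control and 194.3, 160.0 and 170.5 in knockdown (log2 fold change 1.62, SE 0.335, adjusted p = 0.131). Its libraries did not overlap. AEN and RRM2B had adjusted p values of 0.0842 and 0.102, with log2 fold changes of 1.94 and 1.25. None of 13 tested BCL2 family genes passed. Among them, PMAIP1, which encodes the BH3-only protein NOXA, was at 44.3, 13.0 and 16.8 CPM against 351.4, 274.2 and 154.0 (log2 fold change 3.32, SE 0.536, adjusted p = 0.0587). Without control batch 1 its log2 fold change was 4.05 and passed (adjusted p = 0.0428). BAD was at 7.17 ± 1.15 and 20.2 ± 0.309 CPM (adjusted p = 0.178).

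**Figure D3:**
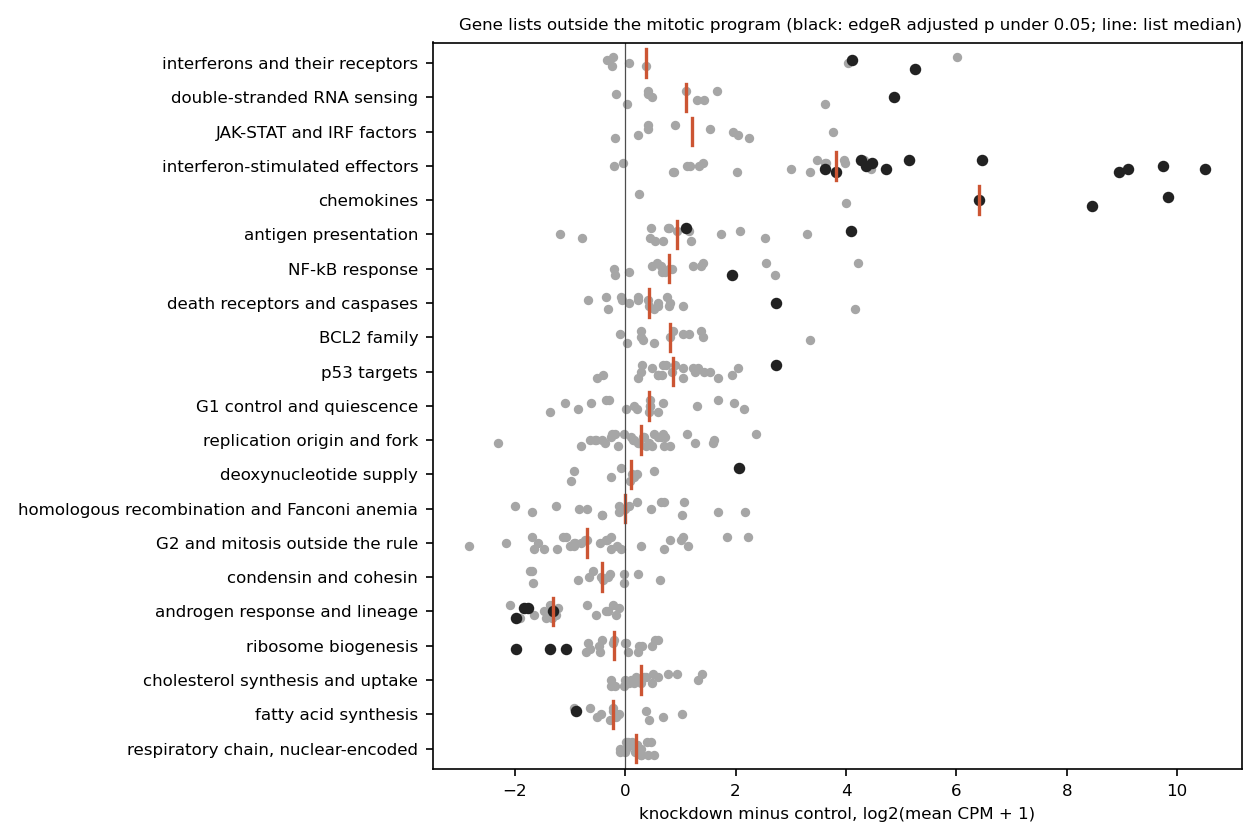
Difference of log2(mean CPM + 1), knockdown minus control (horizontal axis), for every tested member of 21 gene lists in kept cells. Black points passed edgeR's test, grey points did not, and the orange line is the list's median; effectors and chemokines reach beyond 8 and the androgen list lies below 0.

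Luminal program. All 20 tested genes of the androgen response and lineage list had a log2 fold change below 0 (median -1.39, against 49.3% of all tested genes below 0). Of these, 15 had an unadjusted p under 0.05, while 5.33% of all genes tested were lower at that threshold. The 4 that passed were TMPRSS2, KLK2, PLPP1 and ABCC4, beside 0.305% of all genes tested called lower. Knockdown was the lower arm within all 3 batches for 16 of the 20, beside 35.2% of all genes tested with one direction, higher or lower, in all 3. PLPP1, a lipid phosphatase induced by androgen (chromosome 5, 55424854 to 55535050, minus strand), was at 359.4, 282.8 and 305.4 CPM in control and 89.4, 87.9 and 87.6 in knockdown. Its knockdown libraries were nearly equal and all far below control (log2 fold change -1.91, SE 0.145, adjusted p = 0.00446; 0.0459 with the block).

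TMPRSS2, the androgen-induced serine protease of the prostate, was at 358.9, 218.7 and 276.3 CPM in control and 47.9, 68.7 and 97.8 in knockdown (log2 fold change -2.06, SE 0.308, adjusted p = 0.0459; 0.182 with the block and 0.0976 without S phase program cells). KLK2, a kallikrein protease, was at 152.9, 158.4 and 143.0 CPM against 44.9, 34.0 and 53.2 (log2 fold change -1.86, SE 0.216, adjusted p = 0.0177; 0.113 with the block and 0.0582 without S phase program cells). ABCC4, an exporter of cyclic nucleotides, was at 356.4 ± 57.9 and 144.1 ± 20.7 CPM (SD, n = 3; adjusted p = 0.0268; 0.152 with the block and 0.0590 without S phase program cells). Groups did not overlap for any of the 4 genes, which holds for every called gene.

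KLK3 had lower values in every knockdown library than in any control library and did not pass. It was at 665.8, 762.7 and 1357 CPM against 165.1, 356.3 and 223.2 (log2 fold change -1.98, SE 0.371, adjusted p = 0.0957). FOXA1 and HOXB13 did not pass: FOXA1 was at 271.5 and 188.7 CPM (adjusted p = 0.449) and HOXB13 at 48.6 and 43.3 (adjusted p = 0.834). Keratins of luminal cells had higher means in knockdown and did not pass, with KRT8 at 62.6 and 88.2 CPM and KRT18 at 132.8 and 203.6 (adjusted p = 0.582 and 0.171).

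Other falls. DSC2, a desmosomal cadherin, was at 178.4, 294.7 and 214.0 CPM in control and 46.2, 57.4 and 46.0 in knockdown (log2 fold change -2.28, SE 0.234, adjusted p = 0.0119; 0.0459 with the block). DSG2, its desmoglein partner, and CTNNA1, alpha-catenin, were chosen after their values were seen: DSG2 was at 198.8 ± 18.5 and 84.0 ± 10.7 CPM (SD, n = 3; adjusted p = 0.0228; 0.158 with the block) and CTNNA1 at 280.0 ± 47.1 and 97.2 ± 8.28 CPM (adjusted p = 0.0127; 0.0930 with the block). LIN7C, a scaffold at junctions, was at 395.4 ± 72.5 and 110.9 ± 18.8 CPM and kept its call with the block (adjusted p = 0.0137 and 0.0405); it was named for that reason.

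MLEC, or malectin, a lectin of the endoplasmic reticulum that binds glucosylated glycans, was at 176.1, 163.3 and 193.2 CPM in control and 29.4, 36.9 and 22.7 in knockdown (log2 fold change -2.66, SE 0.227, adjusted p = 0.00765; 0.0783 with the block). SRP72, a subunit of the signal recognition particle, was at 415.6, 477.1 and 426.2 CPM against 106.4, 105.0 and 144.8 (log2 fold change -1.96, SE 0.176, adjusted p = 0.00958; 0.0781 with the block). TSC22D3, or GILZ, a target of steroid receptors, was at 107.6, 60.8 and 46.6 CPM against 9.95, 9.92 and 15.4 (log2 fold change -2.67, SE 0.4, adjusted p = 0.0463; 0.206 with the block and 0.0976 without S phase program cells). In each of the 3 genes every knockdown library was below every control library, as in every called gene that was lower.

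PPIL1, a spliceosomal prolyl isomerase, was at 87.6 ± 10.3 and 17.4 ± 3.07 CPM (SD, n = 3; adjusted p = 0.0119; 0.0783 with the block). NETO1, an auxiliary subunit of glutamate receptors, was at 289.7 ± 94.3 and 73.3 ± 5.19 CPM (adjusted p = 0.0228; 0.0930 with the block). KIF3B, a kinesin-2 motor, was at 98.7 ± 19.1 and 25.5 ± 4.28 CPM (adjusted p = 0.0218; 0.107 with the block and 0.0806 without S phase program cells). RMND5A, a subunit of the CTLH ubiquitin ligase, was at 320.3 ± 109.9 and 83.5 ± 11.7 CPM (adjusted p = 0.0277; 0.0990 with the block). The largest log2 fold change among the falls, -3.84 (SE 0.561, adjusted p = 0.0419; 0.158 with the block and 0.0806 without S phase program cells), was that of ENSG00000265579, an unnamed transcript annotated as sense intronic on chromosome 18 (72743756 to 72745961, minus strand), at 35.5 ± 9.96 and 2.60 ± 1.29 CPM. This transcript lies within NETO1 on the same strand (72742314 to 72868146), so these falls may not be independent. RO60, the RNA-binding Ro antigen, was named because it kept its call (155.9 ± 13.6 against 518.9 ± 8.02 CPM in control; adjusted p = 0.00409, and 0.0405 with the block).

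Ribosome biogenesis. Of 20 tested genes, 3 passed, all lower, with a median of -0.286 over the list (log2 fold change). NHP2, a core protein of H/ACA small nucleolar RNPs, was at 102.8, 112.2 and 110.8 CPM in control and 22.9, 30.9 and 26.6 in knockdown (log2 fold change -2.09, SE 0.209, adjusted p = 0.0119; 0.0790 with the block). NCL, nucleolin, was at 603.3, 546.9 and 485.1 CPM against 178.5, 202.9 and 249.2 (log2 fold change -1.45, SE 0.167, adjusted p = 0.0174; 0.117 with the block). NPM1, nucleophosmin, was at 676.7 ± 58.3 and 319.5 ± 37.7 CPM (SD, n = 3; adjusted p = 0.0218; 0.130 with the block), and 2 of its pseudogenes, NPM1P27 and NPM1P39, were called with it, so reads may be shared among these copies. Other members did not pass. NOP58 was at 229.6 CPM in both arms and GNL3 at 570.8 and 498.7 (adjusted p = 0.938 and 0.597).

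Sterol and lipid genes. None of 19 tested genes of cholesterol synthesis and uptake passed (median log2 fold change 0.229). None of 15 tested LXR and sterol sulfation genes passed (median -0.520): the LXR targets ABCA1 and ABCG1 were at 7.13 and 14.1 CPM in control and 4.39 and 6.83 in knockdown (adjusted p = 0.945 and 0.634). PAPSS1, which makes the sulfate donor, was at 145.8 ± 37.3 and 88.7 ± 8.91 CPM (SD, n = 3; adjusted p = 0.195). ACLY, which supplies acetyl-CoA for lipid synthesis, was the 1 of 14 fatty acid genes to pass, at 446.9, 451.0 and 428.2 CPM against 229.9, 246.9 and 235.5 (log2 fold change -0.97, SE 0.113, adjusted p = 0.0169; 0.113 with the block).

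Stress, respiratory and RNA interference genes. None of 17 tested genes of the integrated stress and unfolded protein responses passed (median log2 fold change 0.344); TRIB3 was at 46.6 ± 5.10 and 95.3 ± 17.1 CPM (SD, n = 3; adjusted p = 0.144). The cytosolic chaperone HSP90AA1 was the 1 of 15 heat shock and immediate early genes to pass, at 1741, 1885 and 1661 CPM in control and 3546, 3153 and 3103 in knockdown (log2 fold change 0.82, SE 0.1, adjusted p = 0.0203; 0.113 with the block). HSPA8 was at 3178 ± 305.5 and 2279 ± 289.0 CPM (adjusted p = 0.157), in the opposite direction. None of 21 nuclear respiratory chain genes passed (median 0.127), nor any of 13 genes of RNA interference (median -0.205), the pathway an siRNA enters; AGO1 was at 50.6 ± 21.2 and 24.9 ± 11.2 CPM (adjusted p = 0.436).

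Cell cycle genes not used for the selection. Lists of the cell cycle held few calls in kept cells. Of 31 tested G2 and mitosis genes outside the 6, none passed, with a median log2 fold change of -0.911, and of 34 tested genes of replication origins and forks none passed, with a median of 0.287. Over all 209 control and 192 knockdown cells the medians were -1.30 and -0.816, values that include the different share of mitotic-program cells in each arm. Condensin and cohesin genes (14 tested, none passing) had medians of -0.525 in kept cells and -1.13 in all cells, and homologous recombination and Fanconi anemia genes (19 tested, none passing) of -0.066 and -1.29.

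Some mitotic RNA remained in the kept cells, unevenly. The G2 and mitosis list summed to 263.7, 783.9 and 361.3 CPM in control and 315.7, 274.2 and 311.3 CPM in knockdown, highest in control batch 2, which had 12 cells. CENPE, a kinetochore motor, was at 11.8 ± 3.82 and 2.98 ± 1.59 CPM (SD, n = 3; adjusted p = 0.216), while CDC25C, the phosphatase that activates CDK1, was at 0.0390 ± 0.0676 and 2.75 ± 0.718 (adjusted p = 0.195). Without S phase program cells the list's median was -0.0183. The part of this remaining RNA in the other results was not tested.

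Cells in an S phase program, defined as at least 3 of RRM2, PCLAF, TYMS, CLSPN, CDC6 and GINS2 at 10 CPM or more, were present in both arms. They were 1 of 22, 4 of 12 and 3 of 34 kept control cells and 6 of 43, 3 of 47 and 6 of 40 kept knockdown cells. The shares were 15.6% ± 15.5 and 11.8% ± 4.70 (SD, n = 3; exact p = 0.9), and the exact 95% binomial interval of control batch 2 alone ran from 9.92% to 65.1%. Knockdown was lower by 3.79 percentage points, and higher by 5.09 without control batch 2. Without these cells 66 genes passed, 62 of them among the 97.

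Single genes of DNA synthesis went in both directions. SAMHD1, which degrades deoxynucleotides and restricts viruses, was the 1 of 10 genes of deoxynucleotide supply to pass, at 20.1, 24.9 and 16.1 CPM in control and 109.4, 83.9 and 70.2 in knockdown (log2 fold change 2.03, SE 0.280, adjusted p = 0.0319; 0.123 with the block and 0.0955 without S phase program cells). RRM1, the large subunit of ribonucleotide reductase, was at 131.4 ± 24.3 and 109.6 ± 21.2 CPM (SD, n = 3; adjusted p = 0.654), and DUT, which removes dUTP, at 21.7 ± 9.77 and 10.9 ± 0.334 (adjusted p = 0.397). Of 16 tested replication-dependent histones and SLBP, 1 rose and 1 fell. H4C3 was at 200.1, 247.4 and 279.2 CPM in control and 91.5, 97.7 and 102.7 in knockdown (log2 fold change -1.39, SE 0.176, adjusted p = 0.0228; 0.0950 with the block and 0.0806 without S phase program cells). H2BC5, whose transcripts can also be polyadenylated, was at 27.8, 21.1 and 24.2 CPM against 77.4, 73.4 and 74.9 (log2 fold change 1.55, SE 0.223, adjusted p = 0.0347; 0.186 with the block and 0.0529 without S phase program cells). Histone genes are near-identical copies, and reads may be shared among them.

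None of 19 tested genes of G1 control passed, with a median log2 fold change of 0.364. RBL2, the retinoblastoma relative p130 of resting cells, was at 94.1, 125.4 and 106.3 CPM in control and 36.0, 63.3 and 51.7 in knockdown (log2 fold change -1.18, SE 0.261, adjusted p = 0.142).

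Cells outside and inside the mitotic program. Whether the knockdown difference itself depended on the class was tested with an interaction term over 12 libraries, with each arm and batch as a block. None of 19842 genes passed in edgeR (0.0%), with 1081 at an unadjusted p under 0.05 and a smallest adjusted p of 0.690, whereas DESeq2 called 356, of which 281 had the higher log2 fold change outside. The response was present inside the program too. IFIT3 was at 4.37, 4.57 and 0.198 CPM in control and 930.3, 640.9 and 113.0 in knockdown there. RIGI was at 12.0 ± 5.92 and 240.5 ± 132.5 CPM inside (SD, n = 3), beside 14.2 ± 5.15 and 444.4 ± 67.6 outside, with a difference of log2 fold changes of 0.70 (SE 0.709, adjusted p = 0.960).

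The genes with the smallest p of the difference included 2 of the higher genes. OAS3 was at 28.7, 20.9 and 29.6 CPM in control and 87.4, 47.2 and 33.2 in knockdown inside the program, so its control level there was above that outside (difference of log2 fold changes 4.56, SE 0.653, adjusted p = 0.836; DESeq2 1.79e-08). TM4SF18, a tetraspanin-like membrane protein, had 1 control read outside against 17.9, 13.1 and 14.4 CPM in knockdown (ratio 1235, 95% counting interval 221.5 to 48800; adjusted p of the rise outside 0.00967; 0.0930 with the block), and was at 4.15 ± 1.15 and 3.05 ± 2.26 CPM inside (SD, n = 3; adjusted p of the difference 0.836). It overlaps the antisense gene TM4SF18-AS1, which was called too. PIMREG, a mitotic gene, was at 0.0795 ± 0.0384 and 1.80 ± 0.588 CPM outside and 51.6 ± 27.7 and 36.6 ± 8.96 inside (adjusted p of the difference 0.690).

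Luminal genes were compared in the same way, and none passed. TMPRSS2 inside the program was at 92.0, 66.0 and 75.1 CPM in control and 31.5, 78.7 and 76.6 in knockdown, overlapping groups, where those outside did not overlap. The difference of log2 fold changes was -1.64 (SE 0.265, adjusted p = 0.836; DESeq2 4.85e-05). PLPP1 was lower in knockdown in both classes, at 259.0 ± 24.1 and 103.0 ± 20.2 CPM inside (SD, n = 3; difference -0.53, SE 0.199, adjusted p = 0.884). H4C3 was higher inside, at 1636 ± 451.4 and 616.8 ± 267.3 CPM, with nearly the same ratio between the arms (difference 0.13, SE 0.458, adjusted p = 1.0).

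**Figure D4:**
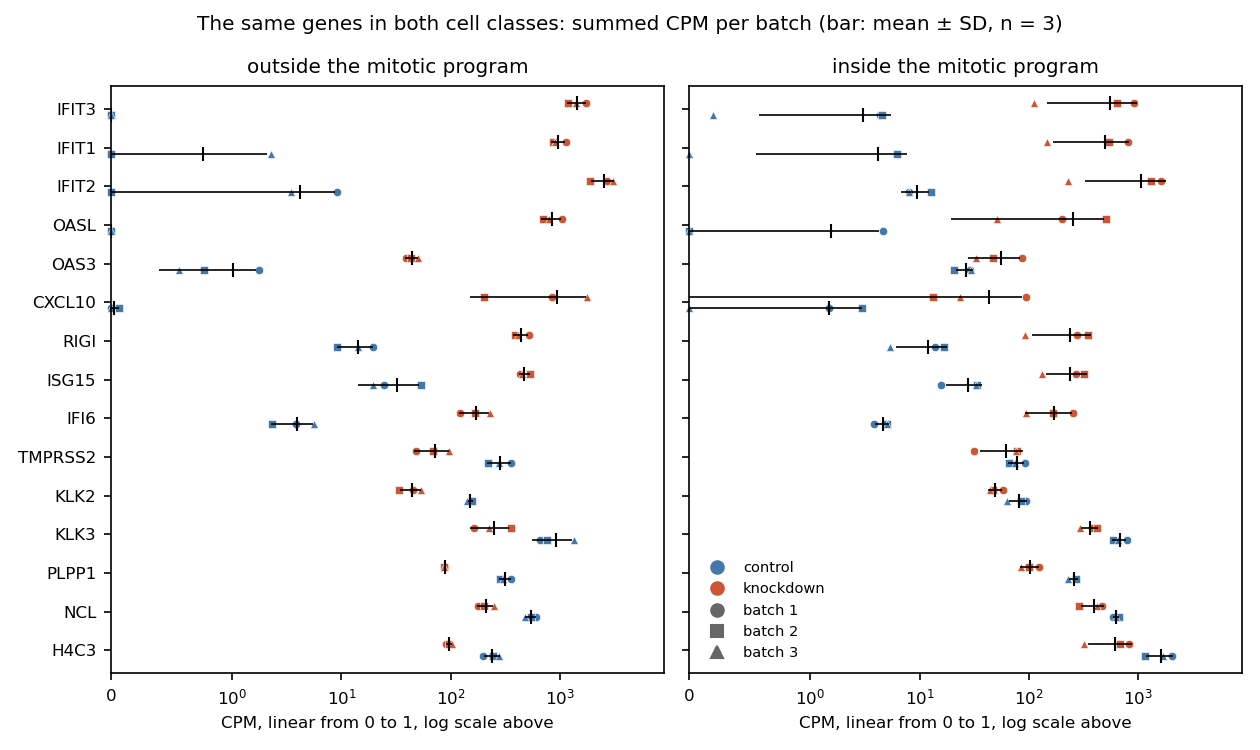
Summed CPM of 15 genes named in the text (linear from 0 to 1 CPM and log scale above) in cells outside (left) and inside (right) the mitotic program, with arm in colour, batch as symbol and mean ± SD bars (n = 3). IFIT, OASL and RIGI libraries of the arms separate in both classes, while TMPRSS2 separates outside and overlaps inside.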

How the data were processed

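The data are whole-number read counts per gene and cell, deposited by the authors without normalization; they carry no molecular identifiers. The submitters' processing notes name the build GRCh38.p3 and the tools TopHat2 (2.1.0), HTSeq (0.6.1), FastQC (0.11.3) and edgeR (3.2.2). Annotation and strand setting were not given in the sources used here. Per the labels' protocols, capture sites with 0 or several cells, and cells stained as dead, were excluded under the microscope, and no doublet caller was run. Of 36135 gene identifiers, 34891 were named by the name table provided, 257 by GENCODE 29 (the source of gene positions on GRCh38) and 987 have no name; 4 columns of values were not used. Cells came from the 414 listed samples where a label named a table column of a single cell.

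Reads of kept cells were summed per arm and batch and tested with edgeR 4.0.16 (limma 3.58.1, R 4.3.3): robust quasi-likelihood test, TMM, filterByExpr with a minimum count of 10, no covariates, Benjamini-Hochberg adjustment over all genes tested, threshold 0.05. Means, SDs and CPM use column totals. Fold limits set an arm without reads at 3 reads (0.0367 CPM in control); genes with 1 to 3 reads have a ratio with an exact 95% counting interval, which covers counting error only. List medians are taken over edgeR log2 fold changes. Shares were reduced to 1 value per library and tested by exact permutation, two-sided. Batch numbers in the labels pair the arms, so a blocked fit (batch as a term) is given wherever it changes a call; the 2 libraries of a batch deviated from their arm means with correlations of 0.0191, 0.0119 and -0.000766. No 2 libraries of the same arm agreed within sampling noise. The tests were checked on simulated data with a lower dispersion (spread between libraries beyond counting error) than the 0.580 fitted here. That check therefore does not show how many true changes were missed in these data. Alternatives were DESeq2 1.42.0, other scalings and filters, equal weight per cell, other limits of the selection, S phase program cells left out and each library left out; leaving out 2 cells that were sequenced again and thinning cells to 100000 reads were chosen after seeing the data. Python 3.11.15 (numpy 2.4.6, scipy 1.17.1, pandas 2.3.3, matplotlib 3.10.9) was used.

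The selection and the 31 gene lists were chosen with earlier results of these data known, and no set test was run. Named genes are SULT2B1, the 12 largest rises and 12 largest falls among called genes with 1 direction in all batches and a mean of at least 5 CPM, without the 6 selecting genes and mitochondrially encoded genes, up to 4 members of each list, and the 5 genes with the smallest p of the difference between classes; others are named as list values, as examples of called genes, or as said in the text. Results of some genes are not reported here.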

Additional observations from a re-analysis of the deposited data

Results flagged for a closer look

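For 2 of the named genes every batch moved one way outside the mitotic program and the opposite way inside it. How many of all genes tested did so was not counted. Both genes were named for being among the 5 with the smallest p of this difference, a choice that favours such opposite movement. None of 19842 genes passed that test in edgeR. PFKM, the muscle form of phosphofructokinase, was at 133.1, 125.0 and 76.7 CPM in control and 66.3, 61.2 and 69.4 in knockdown outside, and at 49.6 ± 6.41 and 88.7 ± 7.82 CPM inside (SD, n = 3). The difference of its log2 fold changes was -1.61 (SE 0.246), with an edgeR adjusted p of 0.836 and a DESeq2 adjusted p of 2.33e-06. ENSG00000231296, a processed pseudogene on chromosome 1 whose reads may belong to its parent gene, had 1 control read outside, 0.520, 7.26 and 6.87 CPM in knockdown outside, and 4.63 ± 3.495 against 0.0806 ± 0.11 CPM inside. Its fitted difference of 14.15 (edgeR adjusted p = 0.836) depends on the prior count and is no bound.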

How the results depend on the processing

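The depth of the selection limits these results: control batch 2 rests on 12 cells, and control libraries hold fewer reads than knockdown libraries. The count of 97 genes was 16 with the replicate block, 1384 with DESeq2, 167 without a filter on low counts, 151 with equal weight per cell, 224 with cells thinned to 100000 reads, 158 over all cells of both arms, 8 with the selecting genes read at 1 CPM and 0 with none of them at 10 CPM, where control batch 2 had no cell and 1069 genes had an unadjusted p under 0.05. The other settings gave 66 to 99, and leaving out 1 library 8 to 63. All 97 genes kept their direction under each setting that tested them. Rescaling moved the median of all genes from 0.0119 to 0.0875 without TMM; with the replicate block it was 0.113. The split was 44.3% higher in the reported fit, 68.8% with the block, 54.5% with DESeq2 and 57.6% with equal weight. SULT2B1 passed under DESeq2 (log2 fold change -4.13). The count of 0 genes for the difference between classes was 356 under DESeq2, and 0 without each batch. The S phase share difference ran from -9.3 percentage points without control replicate 1 to 5.09 without control replicate 2.

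Directions of genes that had not passed turned in these cases, and the cause was not tested. Over all cells the log2 fold change was -0.11 for MCM5, -0.10 for RAD51C, -0.27 for BRIP1, -1.42 for CDC25C, -1.44 for PIMREG, 0.059 for PFKM and -0.31 for ENSG00000231296. Without a mitochondrial limit it was -0.43 for DHX58 and -0.54 for PIMREG. With none of the selecting genes at 10 CPM it was 0.64 for DUT, 1.06 for RRM1, 0.025 for SMC2 and -0.25 for FADS1. With them read at 1 CPM it was 0.76 for RRM1, -0.67 for TRIB3 and -0.32 for JUNB.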

Other observations

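The genes given here are called genes outside the named groups and were chosen after their values were seen. Among those that rose, IFITM3, which blocks viral entry at membranes, was at 158.4 ± 17.3 CPM in control and 435.0 ± 26.6 in knockdown (SD, n = 3; edgeR adjusted p = 0.0119; 0.0950 with batch as a block). GBP1, a guanylate-binding protein, was at 2.29 ± 0.640 and 64.1 ± 28.6 CPM (adjusted p = 0.0119; 0.0783 with the block). ZNFX1, a helicase at mitochondria that senses RNA, was at 28.7 ± 7.18 and 164.2 ± 40.0 CPM and kept its call with the block (adjusted p = 0.0143 and 0.0459). APOL2, an apolipoprotein L gene, was at 19.6 ± 2.41 and 133.0 ± 14.4 CPM and kept it too (adjusted p = 0.00446 and 0.0459). DNAJA1, a co-chaperone of HSP70, was at 519.9 ± 63.3 and 1046 ± 38.3 CPM (adjusted p = 0.0277; 0.113 with the block).

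Among the falls, SLC30A4, a zinc exporter of prostate epithelium, was at 2822 ± 428.0 CPM in control and 1293 ± 108.5 in knockdown (SD, n = 3; adjusted p = 0.0143; 0.0870 with the block), and SLC39A6, a zinc importer, at 307.1 ± 32.7 and 95.7 ± 15.1 (adjusted p = 0.0119; 0.0783 with the block). PDK1, which inhibits pyruvate dehydrogenase, was at 488.7 ± 25.9 and 205.4 ± 45.0 CPM (adjusted p = 0.0276; 0.0949 with the block and 0.0806 without S phase program cells). TSC2, which restrains mTORC1, was at 95.6 ± 12.1 and 31.9 ± 2.74 CPM and LAMTOR2, which anchors mTORC1 at lysosomes, at 80.2 ± 13.5 and 23.0 ± 3.56 (adjusted p = 0.0218 and 0.0268; 0.156 and 0.190 with the block, 0.0647 and 0.0612 without S phase program cells). The ribosomal protein gene RPL32 was at 436.5 ± 65.6 and 145.3 ± 15.0 CPM (adjusted p = 0.0119; 0.0783 with the block), together with its pseudogene RPL32P18, with which reads may be shared.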
